A study of Mus musculus with 3 samples.

Results

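Skeletal muscle RNA of mice heterozygous for a point mutation in Rbm20 was compared with that of wild-type mice, gene by gene for RNA levels and exon by exon for splicing. The mutation, p.I538T (c.T1613C), was placed in the mouse gene with CRISPR/Cas and corresponds to the human change p.I536T (c.T1607C), per the study's design text. Heterozygous mice carry it on 1 allele of Rbm20, wild-type mice on neither. Both groups were 12 weeks old and each is 1 library, described by the labels only as representative of its group. The labels give neither the muscle that was taken nor the number of animals behind a library. Every named gene of the deposited table was taken, 52071 genes with 429043 of the 469293 exonic parts in the series, in 2 of its 3 libraries. The third library, from homozygous mice of the same age, is given beside these for single genes and exons, and it was set against the same wild-type library.

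With 1 library per genotype there is no replicate spread and no test between genotypes, and a difference here is a difference between 2 libraries. The heterozygous library held 265358773 inclusion reads and 58640621 exclusion reads, the wild-type library 239837797 and 53925304. An inclusion read lies in an exonic part, that is an exon or the piece of it that some transcripts use, and an exclusion read joins sequence on both sides of the part and so skips it. Gene levels are given as RPM, the inclusion reads of a gene per 1000000 inclusion reads of its library. Splicing is given as PSI, the percent of transcripts that include a part after correction for its length. The 95% intervals cover counting error of reads only, and not the spread between animals or libraries. Since the reads carry no molecular identifiers, amplified copies cannot be told apart from separate molecules, and the intervals may be too narrow.

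RBM20 is an RNA-binding protein of striated muscle that represses the inclusion of exons, and titin is its best known target. Titin spans the sarcomere from Z-disc to M-band, and its I-band contains the PEVK region, an elastic stretch rich in proline, glutamate, valine and lysine encoded by many short exons; how many of these exons are kept sets the length and stiffness of the protein. In the heart RBM20 also regulates Ldb3, Camk2d, Ryr2 and other genes of the sarcomere and of calcium handling. Skeletal muscle is built of slow fibres, which express the myosin Myh7 and slow troponins, and of fast fibres, which express Myh2, Myh1 or Myh4.

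The sequences that the splicing results turn on come first, from GENCODE M21 transcripts on GRCm38. The PEVK exons of Ttn are shown because the splicing result of that gene rests on them; all lie on the minus strand, and capitals mark codons for proline, glutamate, valine or lysine. Exon numbers count from the first exon of ENSMUST00000099981, which has 347 exons. Exon 159 is at chr2:76836335-76836418, exon 165 at chr2:76833030-76833113, exon 184 at chr2:76828873-76828956 and exon 186 at chr2:76828486-76828569, and these were included less in heterozygous muscle. Exon 171, at chr2:76831788-76831874, was included more.
Ttn exon 159: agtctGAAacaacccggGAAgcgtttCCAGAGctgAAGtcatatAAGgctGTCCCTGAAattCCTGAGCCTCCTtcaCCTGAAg
Ttn exon 165: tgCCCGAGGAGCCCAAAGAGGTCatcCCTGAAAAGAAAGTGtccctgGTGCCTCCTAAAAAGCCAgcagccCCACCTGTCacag
Ttn exon 184: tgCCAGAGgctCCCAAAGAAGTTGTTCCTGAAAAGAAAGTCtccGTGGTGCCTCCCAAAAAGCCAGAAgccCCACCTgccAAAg
Ttn exon 186: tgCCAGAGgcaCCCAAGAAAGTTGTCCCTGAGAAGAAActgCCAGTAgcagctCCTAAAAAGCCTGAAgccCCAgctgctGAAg
Ttn exon 171: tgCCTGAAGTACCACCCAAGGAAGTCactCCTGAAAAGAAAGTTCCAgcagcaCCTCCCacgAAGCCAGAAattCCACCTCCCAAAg
Exons 165 and 184 have the same base at 71 of 84 positions and exons 184 and 186 at 66, while exon 159 shares 35 with exon 165. Of the 27 whole codons in each exon of 84 bases, 21 in exon 165, 23 in exon 184, 20 in exon 186 and 15 in exon 159 are of the 4 marked kinds. Reads from exons this alike could be split between them by the alignment, so a value of 1 such exon is less certain than the sum over the stretch.

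The alternative exons of Tnnt3, the fast skeletal troponin T, are shown because they have equal length and gave opposite differences. Both lie on the plus strand, the first at chr7:142513665-142513705 and the second at chr7:142514326-142514366, and capitals mark the 23 of 41 positions at which their bases differ.
Tnnt3 first: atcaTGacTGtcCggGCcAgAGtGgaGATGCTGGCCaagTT
Tnnt3 second: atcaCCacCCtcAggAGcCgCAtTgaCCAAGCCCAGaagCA
A 3-base part of Srl, which encodes sarcalumenin, a calcium-binding protein of the sarcoplasmic reticulum, is shown in capitals within 18 bases on either side, since it had the widest PSI difference in that gene. It lies at chr16:4493878-4493880 on the minus strand. The 39-base exon of Smyd1, a methyltransferase that acts in sarcomere assembly, lies at chr6:71235343-71235381 on the minus strand.
Srl 3-base part: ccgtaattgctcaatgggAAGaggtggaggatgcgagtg
Smyd1 39-base exon: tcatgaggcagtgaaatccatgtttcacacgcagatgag

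Rbm20 itself had 10.8 RPM (95% Poisson interval 10.4 to 11.2) in heterozygous muscle and 12.97 RPM (12.52 to 13.43) in wild-type muscle, a log2 ratio of -0.24 on RPM plus 1. Homozygous muscle had 2.97 RPM. The table does not hold the mutated base, so these levels do not check the genotype labels. The small difference of the whole gene was made of 2 stretches that differed in opposite directions. The first 12 of its 19 exonic parts had 6.75 RPM in heterozygous muscle and 3.06 RPM in wild-type muscle, 2.20-fold higher, and 10 of these 12 parts were higher. The last 7 parts had 4.05 RPM in heterozygous muscle and 9.90 RPM in wild-type muscle, 2.44-fold lower, and all 7 were lower. The point of division was chosen after the values were seen. Across 8688 genes with at least 100 reads on either side of their own midpoint in both libraries, the ratio of 5′ to 3′ reads differed by a median log2 of 0.08 between heterozygous and wild-type muscle, with quartiles of -0.25 and 0.44. For Rbm20 it differed by 2.10, and 112 genes, 1.29%, were at or above that, while 214, 2.46%, were at or beyond it in either direction. The homozygous library had 0.505 RPM in the first stretch and 2.46 RPM in the last.

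The clearest difference in muscle genes was in the slow fibre programme, whose RNAs were lower in heterozygous muscle. Of 12 slow fibre genes 10 were measured, meaning at least 5 RPM in either library, and 6 were at least 2-fold lower while 0 were 2-fold higher. Over all 9283 measured genes, 288 (3.1%) were 2-fold lower and 560 (6.03%) 2-fold higher, and the median log2 ratio was 0.10; the slow list's median was -1.31. Under median-of-ratios scaling these counts were 352 lower and 446 higher, and the slow list still had 6 lower members.

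Myh7, the slow myosin heavy chain, had 42.5 RPM in heterozygous muscle, 180 RPM in wild-type muscle and 2.13 RPM in homozygous muscle. Myl2, the slow regulatory light chain, had 133 RPM in heterozygous, 455 RPM in wild-type and 25.7 RPM in homozygous muscle. The slow troponins followed the same order: Tnnt1 had 163 RPM in heterozygous, 555 RPM in wild-type and 12.1 RPM in homozygous muscle. For each of these genes heterozygous muscle thus lay between the other libraries. Tnni1 had 48.0 RPM in heterozygous and 160 RPM in wild-type muscle, and Tnnc1 77.2 RPM in heterozygous and 214 RPM in wild-type muscle. Tpm3, the slow tropomyosin, had 193 RPM in heterozygous and 431 RPM in wild-type muscle, a log2 ratio of -1.16.

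The other 4 measured slow genes were lower by less than 2-fold. They were Atp2a2, the slow calcium pump, with 28.3 RPM in heterozygous and 51.8 RPM in wild-type muscle, Myl3, Myoz2 and Casq2, and the smallest difference was that of Myoz2, at a log2 ratio of -0.20. Summed over the list, heterozygous muscle had 980 RPM, wild-type muscle 2424 RPM and homozygous muscle 176 RPM. Mhrt, a transcript antisense to Myh7, had 12.6 RPM in heterozygous and 54.6 RPM in wild-type muscle; the library kit does not mark strand, so its reads cannot be told apart from those of Myh7. In bulk tissue, fewer slow fibres and less slow RNA per fibre cannot be told apart.

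None of the 16 fast fibre genes reached 2-fold in either direction, and their log2 ratios ran from -0.41 for Myh4 to 0.68 for Myh1, with a median of -0.11. Read per kilobase, the makeup of the 4 adult myosins nonetheless differed. Myh4, the fastest, made up 80.1% of their summed reads per kilobase in heterozygous muscle and 88.4% in wild-type muscle. Myh1 made up 15.3% in heterozygous and 7.89% in wild-type muscle, and Myh2 4.42% in heterozygous and 2.90% in wild-type muscle. Myh7 made up 0.229% in heterozygous and 0.801% in wild-type muscle. Heterozygous muscle therefore had more Myh1 and Myh2 and less of the myosins at both ends of the fibre range. The homozygous library had 7.98% Myh1 and 1.59% Myh2. These genes are close relatives, and how reads that fit several of them were assigned is not stated by the labels.

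Beyond slow genes, heterozygous muscle had less RNA of several sarcomere genes and of a secreted muscle peptide. Mybph, a myosin-binding protein H gene, had the lowest ratio among genes of at least 20 RPM, with 42.0 RPM in heterozygous, 465 RPM in wild-type and 231 RPM in homozygous muscle. Actc1, the cardiac actin also made in developing muscle, had 154 RPM in heterozygous, 758 RPM in wild-type and 738 RPM in homozygous muscle. Adora1 had 14.4 RPM in heterozygous and 137 RPM in wild-type muscle, but it overlaps Mybph on the other strand and its reads cannot be told apart from those of that gene. Unlike the slow genes, Mybph and Actc1 were lower in heterozygous than in homozygous muscle. Csrp3, a Z-disc protein of the stretch-sensing machinery, had 52.6 RPM in heterozygous, 132 RPM in wild-type and 23.3 RPM in homozygous muscle, and Ostn, that peptide, osteocrin, 6.68 RPM in heterozygous, 49.2 RPM in wild-type and 4.45 RPM in homozygous muscle.

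Of 60 measured genes for sarcomere and Z-disc proteins 8 were lower and 1 higher, with a median of -0.08. Over all measured genes 3.1% were lower and 6.03% higher. Among the 8 lower genes 6 are slow fibre genes already named, and the others are Mybph and Csrp3. The higher gene was Actn2, an alpha-actinin of the Z-disc, with 418 RPM in heterozygous and 207 RPM in wild-type muscle, and under median-of-ratios scaling it fell short of 2-fold. Among 13 measured regeneration and immature muscle genes 3 were lower, Actc1, Myl4 and Sln, and 2 higher, Ncam1 and Myod1. Myh3, the embryonic myosin, had 23.1 RPM in heterozygous and 18.4 RPM in wild-type muscle, and Myh8, the perinatal one, 90.8 RPM in heterozygous and 100 RPM in wild-type muscle. Neither of these myosins of regenerating fibres differed by 2-fold.

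Regulators of fibre type showed 4 of 21 measured genes higher and 0 lower, beside 6.03% and 3.1% of all measured genes. Vgll2, a cofactor of TEAD factors in muscle, had 28.4 RPM in heterozygous and 9.33 RPM in wild-type muscle. Myod1, the myogenic factor enriched in fast fibres, had 18.03 RPM in heterozygous and 6.29 RPM in wild-type muscle, with 12.01 RPM in homozygous muscle. The remaining 2 were Eya3, a phosphatase and transcription cofactor, with 5.42 RPM in heterozygous and 1.48 RPM in wild-type muscle, and Rcan1, a calcineurin inhibitor and target, with 60.5 RPM in heterozygous and 29.6 RPM in wild-type muscle. Under median-of-ratios scaling 3 of the 4 stayed past 2-fold. Eya3 was measured only through the heterozygous library, so it could not have counted as lower.

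Genes of energy use differed little. None of the 71 nuclear genes of oxidative phosphorylation, the 6 mitochondrially encoded genes or the 22 fatty acid genes reached 2-fold, and their medians were 0.03, -0.08 and 0.32. The median of oxidative phosphorylation turned to -0.06 under median-of-ratios scaling. Plin5, which ties lipid droplets to mitochondria, had 25.6 RPM in heterozygous and 13.99 RPM in wild-type muscle. In glycolysis and glycogen use 1 of 20 genes was higher, beside 6.03% of all measured genes. It was Gbe1, the glycogen branching enzyme, with 31.6 RPM in heterozygous and 13.1 RPM in wild-type muscle. None of the 17 measured atrophy genes passed 2-fold; Eif4ebp1, a brake on translation, had 113 RPM in heterozygous and 57.7 RPM in wild-type muscle.

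Immediate early genes and metallothioneins had a median log2 ratio of 0.63, with 2 of 16 higher and 0 lower. Over all measured genes 6.03% were higher and 3.1% lower, and the median was 0.10. Zfp36 had 13.7 RPM in heterozygous and 5.23 RPM in wild-type muscle, and Mt2, a metal-binding stress protein, 29.1 RPM in heterozygous and 13.5 RPM in wild-type muscle; 1 of the 2 remained past 2-fold under median-of-ratios scaling. Of 14 clock genes Per1 was higher, with 12.9 RPM in heterozygous and 4.57 RPM in wild-type muscle. Per1 was measured only through the heterozygous library, so it could not have counted as lower. The labels do not state the time of day of tissue collection.

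RNA levels of the genes that RBM20 regulates in the heart were mostly alike: 1 of 33 was lower, Myh7, and 0 were higher, with a median of -0.09. For this list and those that follow, the shares over all measured genes were 3.1% lower and 6.03% higher. Of 37 calcium handling genes 1 was lower, Sln, the small inhibitor of the calcium pump, with 3.59 RPM in heterozygous and 10.7 RPM in wild-type muscle. Sln was measured only through the wild-type library, so it could not have counted as higher. Among 26 stretch sensors and chaperones 1 was lower, Csrp3. Of 47 costamere and cytoskeleton genes 2 were lower, Sorbs3 with 16.1 RPM in heterozygous and 34.1 RPM in wild-type muscle and Ank3 with 35.3 RPM in heterozygous and 72.7 RPM in wild-type muscle. Sntb1, a syntrophin, was higher in that list, at 6.31 RPM in heterozygous and 2.64 RPM in wild-type muscle, and was not past 2-fold under median-of-ratios scaling. It was measured only through the heterozygous library, so it could not have counted as lower. Of 61 splicing regulators 2 were higher, Taf15 and Ptbp2, and 1 was lower, the SR protein kinase Srpk1, with 8.42 RPM in heterozygous and 17.9 RPM in wild-type muscle; 1 of the 2 higher genes stayed past 2-fold under median-of-ratios scaling. In none of the 36 genes with postnatal splicing by MBNL and CELF did the level differ by 2-fold.

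**Figure D1:**
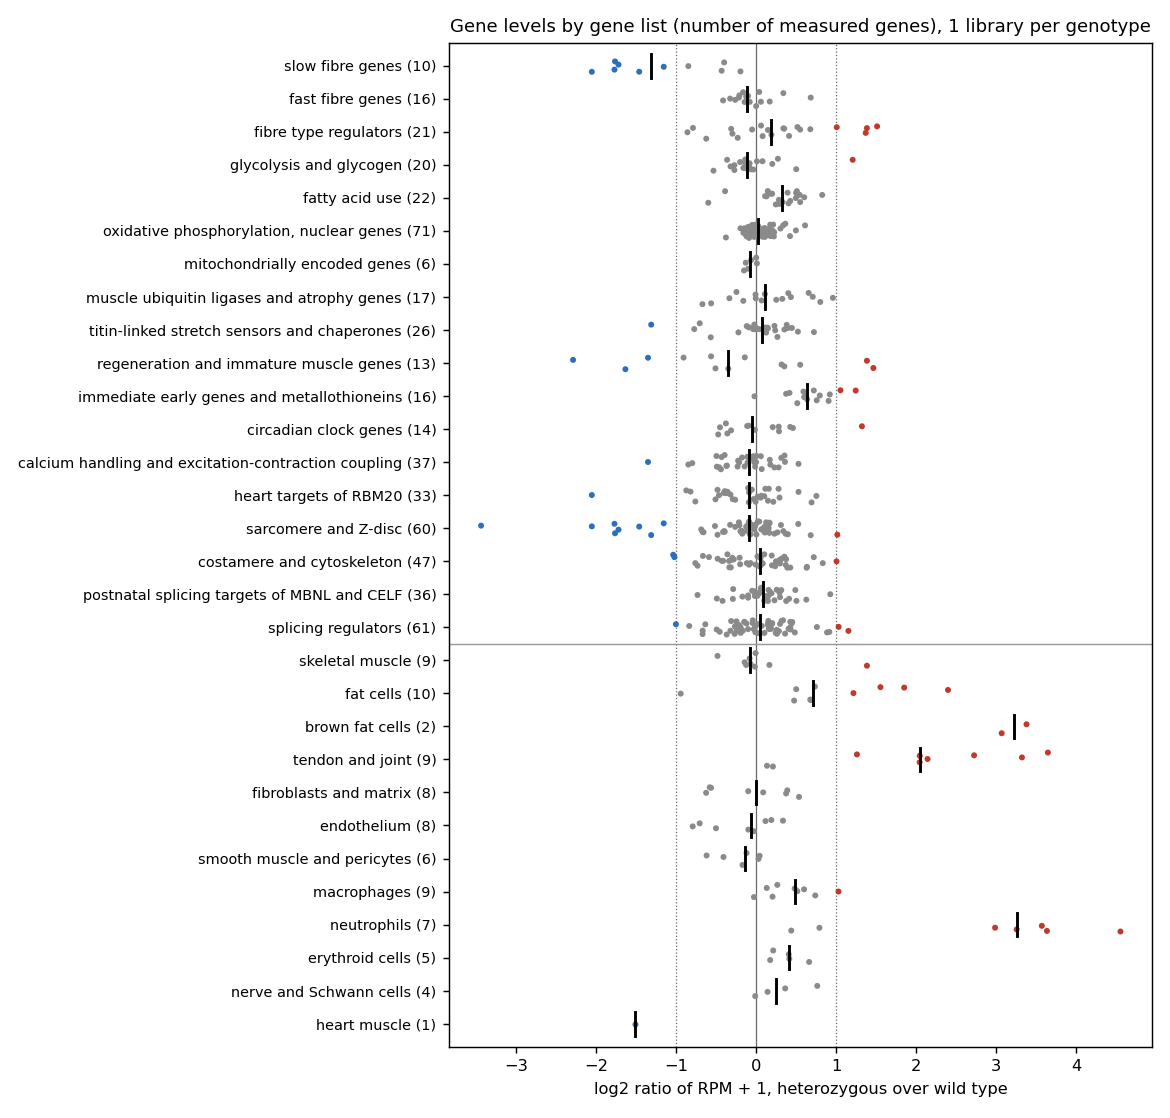
Log2 ratio of RPM plus 1, heterozygous over wild type (horizontal axis), of each measured gene in each gene list (rows), with the list's median marked and dotted lines at 2-fold. The slow fibre genes all lie below 0 with a median of -1.31, while most other muscle lists centre near 0 and the tendon and neutrophil markers lie to the right.

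The genes with the highest ratios were mostly not muscle genes. Prg4, the joint lubricant lubricin, had 133 RPM in heterozygous, 9.75 RPM in wild-type and 75.3 RPM in homozygous muscle. Tnmd, a tendon membrane protein, had 20.5 RPM in heterozygous and 3.87 RPM in wild-type muscle, and the matrix genes Comp and Fmod were 2.04 higher on the log2 scale. Of 9 measured tendon and joint markers 7 were higher and 0 lower, beside 6.03% and 3.1% of all measured genes. These markers summed to 350 RPM in heterozygous, 111 RPM in wild-type and 205 RPM in homozygous muscle. Scx, the transcription factor that defines tendon cells, had 5.17 RPM in heterozygous and 4.62 RPM in wild-type muscle. At least Tnmd and Scx were measured only through the heterozygous library, so neither could have counted as lower.

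S100a9 and S100a8, calcium-binding proteins stored in neutrophils, had 31.7 RPM and 35.5 RPM in heterozygous and 0.392 RPM and 2.82 RPM in wild-type muscle. Of 7 measured neutrophil markers 5 were higher, beside 6.03% of all measured genes. The sum over the list was 117 RPM in heterozygous, 15.4 RPM in wild-type and 93.4 RPM in homozygous muscle. Ngp and Ltf, granule proteins made by neutrophil precursors, had 10.9 RPM and 6.92 RPM in heterozygous muscle and 0 reads in wild-type muscle, at least 869-fold and 553-fold higher against a floor of 3 reads in the wild-type library. Like S100a9 and S100a8, they were measured only through the heterozygous library, so none of these genes could have counted as lower. Ly6g had 2 reads in heterozygous and 0 in wild-type muscle, and the neutrophil protease Mmp8 63 and 0.

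Bone markers, a list added after the values were seen, had 3 of 13 genes measured. Between the 2 libraries compared, all 3 reached 5 RPM only in heterozygous muscle. That all 3 were higher was therefore fixed by the minimum. Bglap, the bone protein osteocalcin, had 5904 reads in heterozygous and 4 in wild-type muscle; its copies Bglap2 and Bglap3 are near identical, so the split among them is uncertain. The list summed to 47.7 RPM in heterozygous, 0.388 RPM in wild-type and 31.9 RPM in homozygous muscle.

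Of 10 fat cell markers 4 were higher, beside 6.03% of all measured genes. Cfd, the adipocyte protease adipsin, had 3709 RPM in heterozygous, 1028 RPM in wild-type and 725 RPM in homozygous muscle, and Pck1, which feeds glycerol synthesis in fat, 277 RPM in heterozygous and 51.8 RPM in wild-type muscle. Adipoq, which defines fat cells, had 282 RPM in heterozygous and 176 RPM in wild-type muscle, while Lep, leptin, ran the other way with 24.1 RPM in heterozygous and 47.3 RPM in wild-type muscle, and was 2-fold lower under median-of-ratios scaling. The fat list summed to 8630 RPM in heterozygous, 4092 RPM in wild-type and 2767 RPM in homozygous muscle. Both measured brown fat markers were higher, Cidea with 35.0 RPM in heterozygous and 2.46 RPM in wild-type muscle and Ucp1, the uncoupling protein, with 7.70 RPM in heterozygous and 0.038 RPM in wild-type muscle. Cidea and Ucp1 were measured only through the heterozygous library, so neither could have counted as lower. Adrb3, the fat cell adrenergic receptor, had 79.2 RPM in heterozygous and 19.7 RPM in wild-type muscle.

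The other marker lists were closer. Skeletal muscle markers summed to 68880 RPM in heterozygous, 73668 RPM in wild-type and 88639 RPM in homozygous muscle, so both libraries compared here carry their labelled tissue. None of the 8 fibroblast, 8 endothelial, 6 smooth muscle, 5 erythroid or 4 nerve markers differed by 2-fold. Of 9 macrophage markers 1, Cd68, was higher, beside 6.03% of all measured genes. Cd68 was not past 2-fold under median-of-ratios scaling, while 0 of 8 lymphocyte markers reached 5 RPM. Of the heart markers only Myh6 was measured, with 5.24 RPM in heterozygous and 16.9 RPM in wild-type muscle, and Nppb had 0 reads in both. Ighm, an immunoglobulin gene with similar relatives, had 105 RPM in heterozygous and 367 RPM in wild-type muscle. What these other tissues contribute to the differences in muscle genes or splicing was not tested.

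**Figure D2:**
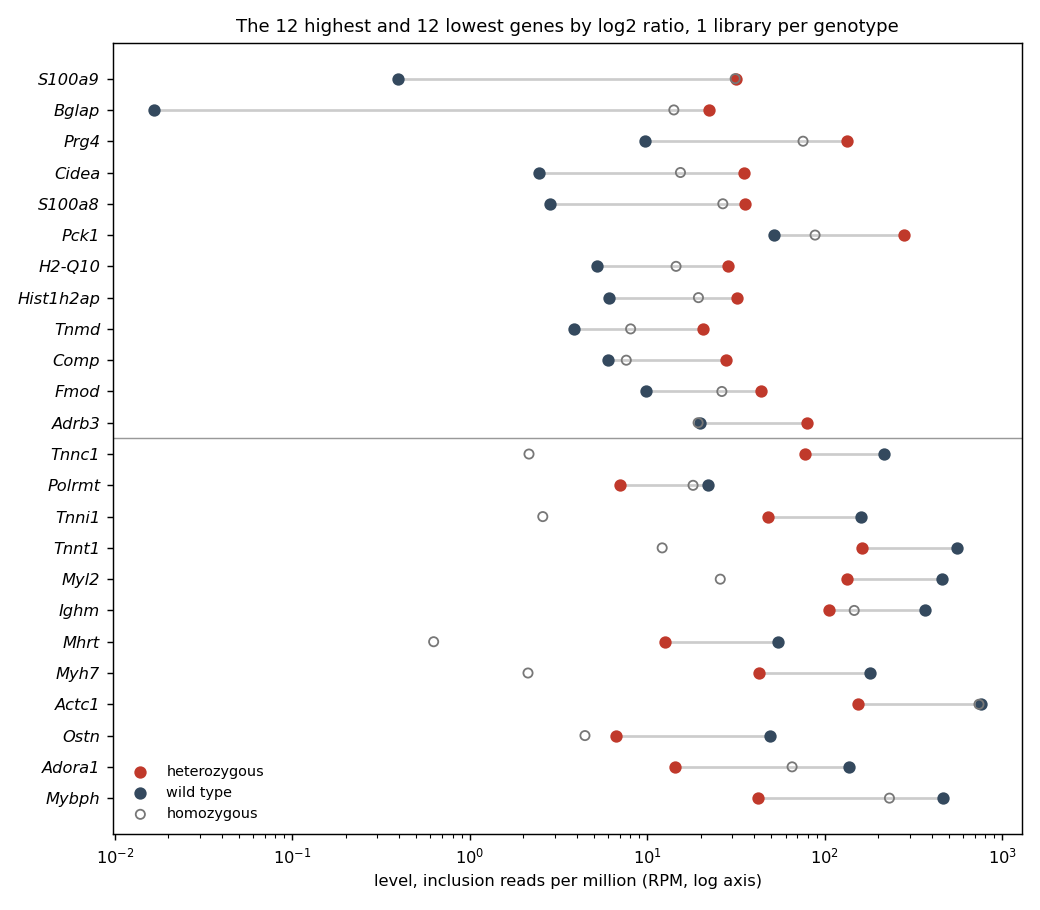
RPM on a log axis (horizontal) of the 12 genes with the highest and the 12 with the lowest log2 ratio among genes of at least 20 RPM (rows), with a filled red point for heterozygous, a dark point for wild-type and an open circle for homozygous muscle. The slow fibre genes sit among the lowest, with homozygous muscle lower still, while tendon, bone, neutrophil and fat genes make up most of the highest.

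Abundant genes seldom differed. Of 1013 genes at 100 RPM or more in either library, 15 were 2-fold higher and 11 lower. Among 98 genes at 1000 RPM or more, log2 ratios ran from -0.73 to 1.85, and the highest was Cfd.

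In titin a block of PEVK exons, with an average PSI of 26.3% in wild-type muscle, was almost entirely skipped in heterozygous muscle, at 2.04%. A part was measured with at least 100 reads in both libraries and called at 20 points of PSI. Over all 96156 measured parts of 13523 genes, 1049 (1.09%) were higher and 1380 (1.44%) lower, and 88.2% differed by less than 5 points. A junction was taken as supported where, in 1 of the 2 libraries, its exclusion reads per base reached 5% of the gene's inclusion coverage (the 90 percentile over its parts), so that a few skipping reads in a deep gene do not decide a call. Of 26797 such parts 955 (3.56%) were higher and 1349 (5.03%) lower, 8.6% in all.

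In Ttn 14 parts in 11 exons between exons 158 and 186 were lower in heterozygous muscle. Their PSI averaged 2.04% in heterozygous, 26.3% in wild-type and 34.3% in homozygous muscle. Single parts ran from 0.373% to 6.30% in heterozygous and from 21.4% to 33.4% in wild-type muscle. These parts were chosen for a lower PSI in heterozygous than in wild-type muscle. With heterozygous values this low, the gap between the 2 ranges follows from that choice and is not a separate result. The homozygous values took no part in the choice. All 14 parts had a higher PSI in the homozygous library than in the wild-type one, so the heterozygous library did not lie between the others. The exons span chr2:76828486-76836622, all have 84 bases, and all can therefore be skipped without changing the reading frame.

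The reads behind these values were many. Inclusion reads per part numbered 16 to 442 in heterozygous and 2249 to 3766 in wild-type muscle, and exclusion reads 3957 to 4285 in heterozygous and 4575 to 6489 in wild-type muscle. Exon 159 had a PSI of 2.9% in heterozygous, 30.04% in wild-type and 46.9% in homozygous muscle, and exon 184 0.9% in heterozygous, 27.2% in wild-type and 35.9% in homozygous muscle. Exon 186, the last of the block, had 6.3% in heterozygous, 33.4% in wild-type and 49.5% in homozygous muscle. The pieces of exon 165, the exon printed second, had at most 0.6% in heterozygous, 26.6% and 28.5% in wild-type and 33.9% and 36.8% in homozygous muscle. In each of these exons the heterozygous value was the lowest and the homozygous one the highest. Exon 171, inside the block, ran the other way, with 78.1% in heterozygous, 52.4% in wild-type and 41.2% in homozygous muscle. Proline, glutamate, valine and lysine make up 71.4% of the 297 residues encoded by the lower exons and 82.1% of the 28 in exon 171, against 35.1% of the 35213 residues of the whole protein.

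The level of the stretch was also taken, from inclusion reads alone. Its limits are the first and last exons called lower, and its reads include those behind the calls. It is therefore not independent of the PSI result. All 35 measured parts between exons 158 and 186 summed to 38.4 RPM in heterozygous, 274 RPM in wild-type and 303 RPM in homozygous muscle, a log2 ratio of heterozygous over wild type of -2.83. The 169 measured parts before the stretch had 3237 RPM in heterozygous and 4497 RPM in wild-type muscle, a log2 ratio of -0.47. The 169 after it had 2061 RPM in heterozygous and 2759 RPM in wild-type muscle, a log2 ratio of -0.42. The stretch was thus lower by far more than the gene on either side of it, and whole Ttn had 5661 RPM in heterozygous and 7912 RPM in wild-type muscle. Within the stretch 19 parts had a PSI under 20% in wild-type muscle and could not be 20 points lower. No supported part outside it in the transcript passed 20 points; a retained intron part had 26.01% in heterozygous and 51.58% in wild-type muscle.

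Another 63 parts of Ttn, in exons 48 to 336, passed 20 points upward without a supported junction. Of these, 45 lie before the PEVK stretch, up to exon 91, and 18 after it. They share 6 pairs of exclusion counts, so they stand for few junctions. In heterozygous muscle 59 of them had 0 exclusion reads and the others at most 57, while wild-type muscle had 37 to 176 and homozygous muscle 65 to 127. Their inclusion reads were 148 to 1893 in heterozygous and 167 to 2094 in wild-type muscle. These skipping reads are few for a gene this deep. The parts were chosen for a higher PSI in heterozygous than in wild-type muscle, so fewer skipping reads in heterozygous muscle follow from that choice. The homozygous counts took no part in it.

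**Figure D3:**
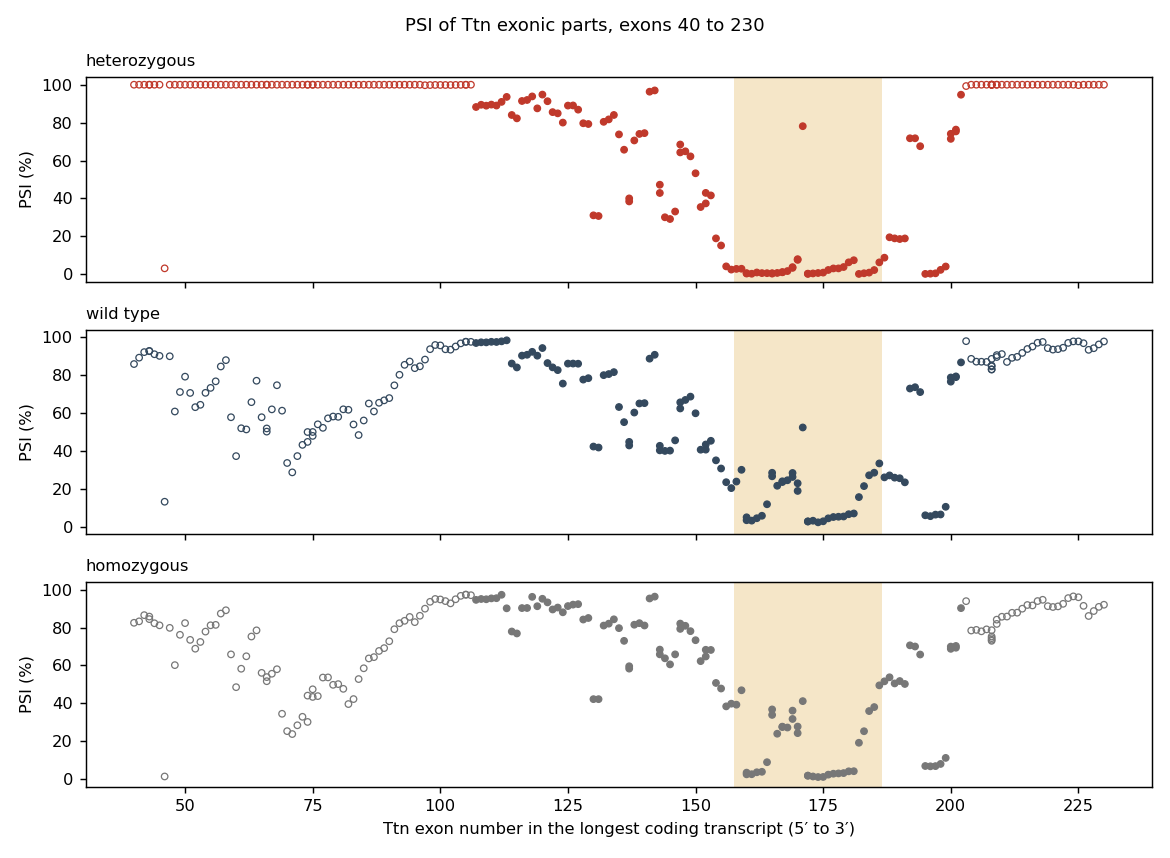
PSI in percent (vertical axis) of measured Ttn parts by exon number, 40 to 230 (horizontal axis), in panels for the heterozygous, wild-type and homozygous libraries, with exons 158 to 186 shaded and filled points where the skipping junction is supported. In the shaded stretch the heterozygous points of the 14 lower parts lie near 0, where wild-type points average 26.3% and homozygous points 34.3%.

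Among thin and thick filament genes the paired Tnnt3 exons had the greatest read support. The first exon had a PSI of 28.2% in heterozygous, 49.3% in wild-type and 29.3% in homozygous muscle, with a counting interval of the difference from -21.2 to -20.9 points. The second had 74.1% in heterozygous, 52.7% in wild-type and 72.9% in homozygous muscle, an interval from 21.2 to 21.6 points. The exons differed in opposite directions by about the same amount. The short 5′ exons of Tnnt3 differed less: an 18-base exon had 33.6% in heterozygous and 27.3% in wild-type muscle, and a 12-base exon 72.8% in heterozygous and 80.6% in wild-type muscle.

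In Mybpc2, which encodes the fast form of myosin-binding protein C, 18 of 31 measured parts were higher, but these hold 5 distinct exclusion counts. In the part with the widest difference, 133 bases long, 283 reads skipped it in heterozygous and 2958 in wild-type muscle, and PSI was 91.1% in heterozygous, 51.1% in wild-type and 99.9% in homozygous muscle. Skipping reads over the 18 parts numbered 118 to 301 in heterozygous, 2958 to 3101 in wild-type and 2 to 796 in homozygous muscle, so wild-type muscle had the most in each.

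Tpm3 gave 2 differences, in a gene whose level was itself lower. A 149-base coding part had a PSI of 28.8% in heterozygous, 8.47% in wild-type and 55.5% in homozygous muscle. The PSI of a 200-base coding part was 50.5% in heterozygous, 78.4% in wild-type and 31.9% in homozygous muscle. Both parts, like the Tpm3 level, place heterozygous muscle between the other libraries.

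The 39-base exon of Smyd1 had a PSI of 61.9% in heterozygous, 38.5% in wild-type and 36.4% in homozygous muscle, with an interval of the difference from 15.9 to 30.5 points. Palld, an actin-bundling Z-disc protein, had a 51-base exon at 34.8% in heterozygous, 68.3% in wild-type and 70.1% in homozygous muscle. In Palld, as in Smyd1, heterozygous muscle stood apart from both other libraries. Synpo2, which acts in filamin turnover, had a 109-base part at 79.5% in heterozygous muscle and 100% in both others, with 134 skipping reads in heterozygous and 0 in wild-type muscle. Dnajb6, a chaperone of the Z-disc, had a 321-base part at 34.8% in heterozygous and 76.1% in wild-type muscle. In these exons of Smyd1, Palld and Synpo2 homozygous and wild-type muscle were within 3 points. The same held for other called parts, among them those of Camk2d and Pygm given below.

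Supported calls were found in 12 of 60 sarcomere and Z-disc genes, 20%, beside 10.4% of all genes measured for splicing. Their calls were 38 parts higher and 25 lower, 10.2% of the list's supported parts, beside 8.6% over all genes. Calls in Neb, the ruler of the thin filament with many repeated exons, and in Myh1, Myh2, Myh3, Myh6 and Myh7 are uncertain because their exons resemble each other. Many genes of the list did not reach a call: over all their measured parts the widest differences were 9.55 points in Ldb3, 7.58 in Pdlim3, 4.01 in Tpm1, 5.82 in Tpm2, 8.97 in Myom1 and 2.86 in Nrap.

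Genes of calcium handling had supported calls in 8 of 38 genes, 21.1%, beside 10.4% of all genes measured for splicing. Their calls were 7 parts higher and 6 lower, which is 8.55% of their supported parts and near the 8.6% over all genes. The Srl part printed above had a PSI of 93.7% in heterozygous, 52.8% in wild-type and 96.8% in homozygous muscle, an interval of the difference from 34.6 to 46.6 points. A 99-base part of Srl had 0 skipping reads in heterozygous and 109 in wild-type muscle, a PSI of 100% (lower bound 98.8%) in heterozygous and 68.9% in wild-type muscle. All 4 called parts of Srl were higher, and homozygous muscle was above 96% in each of them.

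The CaMKII genes, kinases activated by calcium, differed in opposite directions. A 114-base exon of Camk2b had 86.6% in heterozygous, 58.2% in wild-type and 52.0% in homozygous muscle, while a 55-base exon of Camk2d had 53.7% in heterozygous, 79.8% in wild-type and 80.0% in homozygous muscle. Their reads were few: the Camk2b exon had 145 inclusion and 12 skipping reads in heterozygous and 78 and 30 in wild-type muscle. A retained intron part of Camk2g had 8.1% in heterozygous and 46.9% in wild-type muscle. Atp2a2, the slow calcium pump, had a 963-base part at 46.1% in heterozygous, 21.3% in wild-type and 48.5% in homozygous muscle, and the untranslated 6-base part of Tmem38a, a potassium channel of the sarcoplasmic reticulum, 68.8% in heterozygous and 91.3% in wild-type muscle.

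No part of Ryr1, the calcium release channel, was called among 122 measured, with a widest difference of 14.7 points. Trdn, its anchor, reached 8.54 points and Atp2a1, the fast calcium pump, 3.43. Among genes with exons that MBNL and CELF proteins switch after birth, 7 of 37, 18.9%, had a supported call, beside 10.4% of all genes. Per supported part that is 3.28%, below the 8.6% over all genes. Bin1 at 9.37 points and Fxr1 at 4.93 had no call.

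Dnm2, which cuts membrane necks and shapes T-tubules, had a 64-base coding part at 61.5% in heterozygous, 30.9% in wild-type and 62.1% in homozygous muscle, an interval from 23.2 to 37.6 points. Mef2a, a myogenic transcription factor, had a 132-base exon at 13.4% in heterozygous, 33.8% in wild-type and 23.3% in homozygous muscle.

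Among the heart targets of RBM20, 12 of 33 genes, 36.4%, had a supported call, beside 10.4% of all genes measured for splicing. Their calls were 11 parts higher and 28 lower, 11.54% of the list's supported parts, beside 8.6% over all genes. The list has 1163 measured parts, and a gene with more parts has more chances of a call. Ttn supplied 15 of the lower parts, and other genes of this list are counted in the sarcomere and calcium lists as well. Rtn4, also in this list, had no call, with a widest difference of 17.8 points.

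Costamere and cytoskeleton genes, which anchor myofibrils to the membrane and matrix, had supported calls in 15 of 47 genes, 31.9%, beside 10.4% of all genes measured for splicing. Their calls were 21 parts higher and 20 lower, 17.4% of the list's supported parts, beside 8.6% over all genes. Of the higher parts 13 belong to Tln1 and stand for 1 junction. Itga7, the laminin receptor of muscle, has 2 alternative exons in its ligand-binding region. The 132-base one, at chr10:128941445-128941576 on the plus strand, had a PSI of 14.6% in heterozygous, 50.4% in wild-type and 19.9% in homozygous muscle. The 120-base one, at chr10:128941822-128941941, had 82.7% in heterozygous, 58.9% in wild-type and 45.4% in homozygous muscle. The intervals of the differences were -45.4 to -25.7 and 12.1 to 35.1 points, so heterozygous muscle had less of the first and more of the second.

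Map4, a microtubule-associated protein, had 4 supported parts lower, among them a 61-base part at 14.4% in heterozygous, 45.9% in wild-type and 11.7% in homozygous muscle. Dst, a giant linker of filaments, had 5 parts lower, and an 18-base exon of it had 1.6% in heterozygous, 27.5% in wild-type and 0.7% in homozygous muscle. An 87-base exon of Ank3, an adaptor of membrane proteins, had 53.0% in heterozygous, 77.0% in wild-type and 100% in homozygous muscle. All these parts were lower in heterozygous muscle. Lmo7, an adaptor of cell junctions, had 1 called part in each direction. A retained intron part of it had 37.3% in heterozygous and 67.2% in wild-type muscle, and its 282-base part had 0 skipping reads in heterozygous and 81 in wild-type muscle, for PSI of 100% (lower bound 96.2%) in heterozygous and 59.8% in wild-type muscle. In Tln1, talin, 13 parts were higher, but all share the same 22 skipping reads in wild-type muscle and 0 in heterozygous muscle, so they stand for 1 junction.

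Splicing regulators had supported calls in 19 of 61 genes, with 13 parts higher and 18 lower. Per supported part that is 5.81%, below the 8.6% over all genes, although the share of genes, 31.1%, is above 10.4%; a gene with more parts has more chances of a call. Many of these parts belong to transcripts that retain an intron or end early. In Clk1, a kinase of SR proteins, 3 retained intron parts were lower, and the widest difference was 17.2% in heterozygous against 59.0% in wild-type muscle. Rbm5 had 5 parts lower, and its 268-base retained intron part had 21.3% in heterozygous and 59.7% in wild-type muscle. Snrnp70, a U1 snRNP protein, had a retained intron part at 21.3% in heterozygous, 48.8% in wild-type and 17.7% in homozygous muscle. Over the whole list 8 called retained intron parts were lower in heterozygous muscle and 2 were higher, the higher ones in Srpk1 and Tra2a.

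Other regulators differed the opposite way or in coding exons. The retained intron part of Srpk1 had 100% (lower bound 64.1%) in heterozygous, 11.4% in wild-type and 28.0% in homozygous muscle. Srsf4 had a part found in a decay transcript at 46.5% in heterozygous, 19.7% in wild-type and 3.1% in homozygous muscle. Hnrnph3 had a 139-base coding part at 51.0% in heterozygous and 83.1% in wild-type muscle and a 44-base part at 73.9% in heterozygous and 50.1% in wild-type muscle. Luc7l had a 36-base coding part at 63.1% in heterozygous and 97.6% in wild-type muscle, and Celf2 a 12-base exon at 43.5% in heterozygous and 19.3% in wild-type muscle. No single direction held across the list.

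Metabolic genes seldom had calls, but 2 were deep. Pygm, the muscle glycogen phosphorylase, had 4 parts lower that rest on up to 2437 skipping reads in heterozygous muscle against 42 in wild-type muscle; its 83-base part had 75.5% in heterozygous, 99.4% in wild-type and 99.3% in homozygous muscle. In Ndufa5, a complex I subunit, a 45-base part had 2303 skipping reads in heterozygous and 0 in wild-type muscle, for PSI of 75.8% in heterozygous, 100% (lower bound 99.9%) in wild-type and 74.2% in homozygous muscle. Supported calls were found in 1 of 21 glycolysis genes, 1 of 22 fatty acid genes, 2 of 71 oxidative phosphorylation genes and 0 of 6 mitochondrial genes. For the glycolysis, fatty acid and oxidative phosphorylation lists the share of genes with a call lies below that of all genes, 10.4%. The mitochondrial genes had 0 parts with a supported junction, so no call was possible in them.

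Calls in the remaining lists came from few genes each, beside 10.4% of all genes. They were found in 4 of 28 stretch sensors and chaperones, 3 of 23 fibre type regulators, 1 of 12 regeneration genes, 1 of 20 atrophy genes, 2 of 16 clock genes and 0 of 19 immediate early genes. Fbxo31, the atrophy gene with a call, is a ubiquitin ligase subunit whose 87-base part had 70.0% in heterozygous and 91.4% in wild-type muscle. Slow and fast fibre lists had calls in 3 of 12 and 4 of 16 genes, in Tpm3, Tnnt3, Mybpc2, Atp2a2 and the myosins. The called parts made up 10.7% and 9.96% of the supported parts of these lists, beside 8.6% over all genes.

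**Figure D4:**
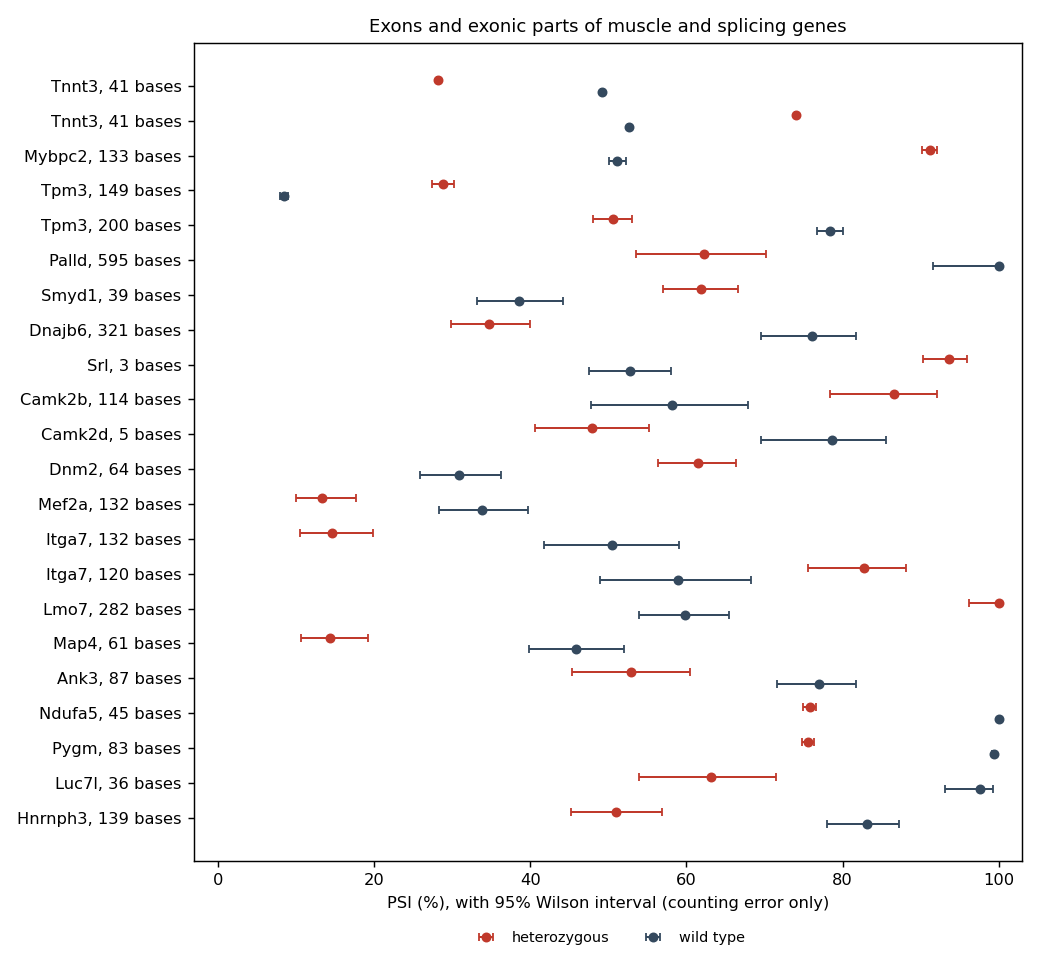
PSI in percent (horizontal axis) with 95% Wilson intervals of 22 exons or parts (rows) of muscle, calcium, adhesion and splicing genes in heterozygous (red) and wild-type (dark) muscle. The intervals are narrow for Tnnt3, Mybpc2, Pygm and Ndufa5 and wide for Camk2b and Itga7, whose reads are few.

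Ranked by the interval bound nearest 0, the parts furthest apart in the whole table were mostly in gene families. Of the 15 highest and of the 15 lowest, 13 each belong to genes with close copies, such as carboxylesterases, zinc finger and histone genes, where reads can be misplaced. The others were Atp1a4, Rbm6, Hfe and Smpdl3b. A 169-base coding exon of Atp1a4, a sodium pump subunit known from sperm, had 561 inclusion and 0 skipping reads in heterozygous muscle and 0 inclusion and 341 skipping reads in wild-type muscle, and its PSI was 100% in homozygous muscle. A 140-base part of Hfe, the hemochromatosis protein, had 7.4% in heterozygous, 98.0% in wild-type and 62.9% in homozygous muscle. Its skipping reads numbered 901 in heterozygous and 2 in wild-type muscle. A part of the histone gene H4c3 on the same chromosome had 813 and 2. Whether the 2 genes share skipping junctions was not tested, so the assignment of the Hfe reads is uncertain. The 794-base part of Smpdl3b, a membrane phosphodiesterase, had the same skipping counts as a part of another gene on that chromosome, Themis2 (331 in heterozygous and 3 in wild-type muscle), so the assignment of these reads is uncertain. Its PSI was 0.8% in heterozygous, 91.2% in wild-type and 7.7% in homozygous muscle. In Rbm6 a 1146-base part had 100% in heterozygous, 23.4% in wild-type and 44.6% in homozygous muscle.

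The 2304 supported called parts lay in 1412 genes and held 1797 distinct exclusion counts, and 1016 of the genes had 1 such part. Coding sequence made up 58.4% of the higher and 48.6% of the lower parts, beside 33.2% of all supported parts, and retained introns 14.03% of the higher and 20.5% of the lower parts, beside 32.8%. Of whole coding exons among them, 41.1% of the higher and 43.3% of the lower had a length divisible by 3, beside 43.7% of all supported ones. Genes with close copies held 21.4% of the higher and 21.1% of the lower parts, beside 11.3%. Called parts were shallower than the rest, with a median of 184 reads in the shallower library against 327, and 34.3% of all called parts had a PSI of 0 or 100% in 1 library. Of 1202 genes with a supported call and a measured level, 52 (4.33%) were 2-fold higher and 29 (2.41%) lower in level, beside 6.03% and 3.1% of all measured genes.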

How the data were processed

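Total RNA of skeletal muscle was made into libraries with a low-input SMART-seq v4 kit and Nextera XT and sequenced on a NovaSeq instrument, as in the labels' protocols. GRCm38, Bowtie 1.1.1, TopHat2 2.0.14, Trimmomatic 0.32 and cutadapt 1.1 are listed in the submitters' processing notes; no source used here gives the counter of exonic parts. For each part the authors deposited its length, inclusion counts, exclusion counts, PSI as a fraction and a PSI difference score, per the file headers. PSI was recomputed from the counts and equals the deposited fraction within 5e-07. The deposited difference score is wild type minus the other genotype and was not used; here differences are heterozygous minus wild type.

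Groups of merged overlapping genes (1405, with 9.67% of heterozygous and 9.57% of wild-type inclusion reads) were left out. Level ratios are log2 of RPM plus 1, measured at 5 RPM. A count of 0 allows up to 3 reads, 0.0113 RPM in heterozygous and 0.0125 RPM in wild-type muscle. Intervals are exact Poisson for levels, Wilson for PSI and Newcombe for differences. The 18 gene lists, 13 marker lists, named genes and comparison were chosen with earlier results of these data known. Named genes are Rbm20, Ttn, the adult myosins, the 12 highest and 12 lowest ratios at 20 RPM or more, the 3 furthest of each list, the 15 parts furthest apart each way and the 3 called parts furthest apart in each list; other genes were named after their values were seen, and not every gene that the rule names is reported here. The scripts were tested on simulated data. Values were computed with pandas 2.3.3, scipy 1.17.1 and numpy 2.4.6 in Python 3.11.15 and drawn with matplotlib 3.10.9.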

Additional observations from a re-analysis of the deposited data

How the results depend on the processing

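No paired analysis was possible because each genotype has 1 library, and no replicate could be left out for the same reason. The 560 genes 2-fold higher and 288 lower became 146 and 38 with a 20 RPM minimum, 1005 and 713 with no minimum, and 55 and 27 at 4-fold. Median-of-ratios scaling, whose factor is 1.06 (log2 0.09), gave 446 higher and 352 lower. The slow fibre median of -1.31 was -1.39 with median-of-ratios, -1.46 with the 20 RPM minimum and -1.001 with no minimum. The 1049 parts higher and 1380 lower became 2676 and 3419 at 10 points, 445 and 648 at 30 points, 4845 and 6067 with 10 reads, and 167 and 225 with 500 reads. With 1 part per gene they were 599 and 858, among whole coding exons with a supported junction, a choice made after seeing the data, 377 and 441, and with PSI of 0 or 100 left out 647 were higher. The 64 Ttn parts higher were 124 at 10 points, 38 at 30 points, 34 with 500 reads, 1 with supported junctions or whole coding exons, 7 with equal exclusion counts merged, 10 without PSI of 0 or 100 and 18 with no length correction. The 15 Ttn parts lower were 30 at 10 points and 0 at 30 points. The causes of these differences were not tested. Depth limits parts with few skipping reads, such as those of Tln1 with 22 in wild-type muscle.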
